A study of Oryza sativa Japonica Group with 12 samples.

Results

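The change of the treatment effect between 2 times was examined in rice roots, over all 12 root libraries of the series. The quantity described is the effect of a piperonylic acid spray at 24 h minus its effect at 6 h, per gene, on the log2 scale. Each effect is the mean of treated roots minus the mean of mock roots at that time, so a positive difference means an effect that was higher at 24 h. All 19207 genes that averaged 10 or more normalised counts were tested, of 35833 rows in the table.

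The plants were Oryza sativa cultivar Nipponbare, and each of the 4 groups held 3 samples. Treated plants received 300 µM piperonylic acid with 0.1% Tween 20 on the leaves, and mock plants received a matching mock solution. The spray was given 13 days after seedlings 5 days past germination had been transplanted, under 28 °C and 12 h of light. Roots of 4 plants were pooled for each sample at 6 h or 24 h, so the spread between samples is a spread between pools. The source names speak of a second treatment and the series title of a nematode infection, and the protocols used here establish neither an earlier spray nor an inoculation of these roots.

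Piperonylic acid inhibits cinnamate 4-hydroxylase, an enzyme near the entry of the phenylpropanoid pathway, which leads from phenylalanine to lignin, flavonoids and many defence compounds. Rice also defends itself with diterpenoid phytoalexins, antimicrobial compounds built from plastidial isoprenoid precursors, and with pathogenesis-related proteins. Hormone-responsive repressors and transcription factors such as JAZ, WRKY and DREB proteins are known for fast and often transient changes.

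Libraries were sequenced from the 3′ ends of mRNA, so that each read stands for the end of 1 transcript. Recovered reads numbered 6302056 to 10254382 in 11 libraries and 20301774 in 24 h mock 1, where libraries are named by time, treatment and replicate number. The library 24 h mock 2 stood apart on the third principal component, at 51.6 against -21.5 to 8.60 in the other libraries, and values without it are given beside the results that it moved most. Genes listed as root markers were above 0 in every library, with 0 of 7 at 0 and summed normalised counts of 30973 to 46818. The 10 genes listed as leaf markers summed to 505 to 1998, and none was at 0 in any library. In bulk roots, fewer cells of a type and less RNA per cell cannot be told apart.

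The treatment effect differed between the times in 106 of the 19207 genes by limma at a Benjamini-Hochberg adjusted p under 0.05, which is 0.552% of the genes tested. The effect was lower at 24 h in 66 genes, 0.344% of those tested, and higher at 24 h in 40, 0.208%. Called genes had between 12.0 and 3267 normalised counts on average, with a median of 301, against a median of 114 over all genes tested. Their median standard error of the difference was 0.19 on the log2 scale, against 0.24 over all genes. At an unadjusted p under 0.05 the difference passed in 2108 genes, or 11.0%, with 5.95% higher and 5.02% lower at 24 h. The called genes carried all 12 chromosome prefixes of the identifiers, with 4 to 14 genes each. Because p comes from samples whose origin in separate cultures or days is not stated, it measures only the spread between these samples.

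In the main fit most of the called genes reversed, which did not hold in every other fit. A gene was placed by the unadjusted limma p of its effect at each time: reversed if both were under 0.05 with opposite signs, and otherwise of 6 h only or 24 h only if one was. Of the 106 genes, 74 or 69.8% reversed, 25 or 23.6% responded at 6 h only, 7 or 6.60% responded at 24 h only, and 0 responded in the same direction at both times. Over all genes tested, 14.8% had an unadjusted p under 0.05 at 6 h and 6.11% at 24 h; 175 or 0.911% passed at both times in opposite directions and 110 or 0.573% in the same direction. Signs were opposite in 105 of the 106 genes, against 9497 of all 19207; choosing genes by a large difference favours opposite signs. With adjusted p in place of unadjusted p, 52 of the 74 reversed genes were called at 6 h, 8 at 24 h, 6 at both times and 20 at neither.

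**Figure D1:**
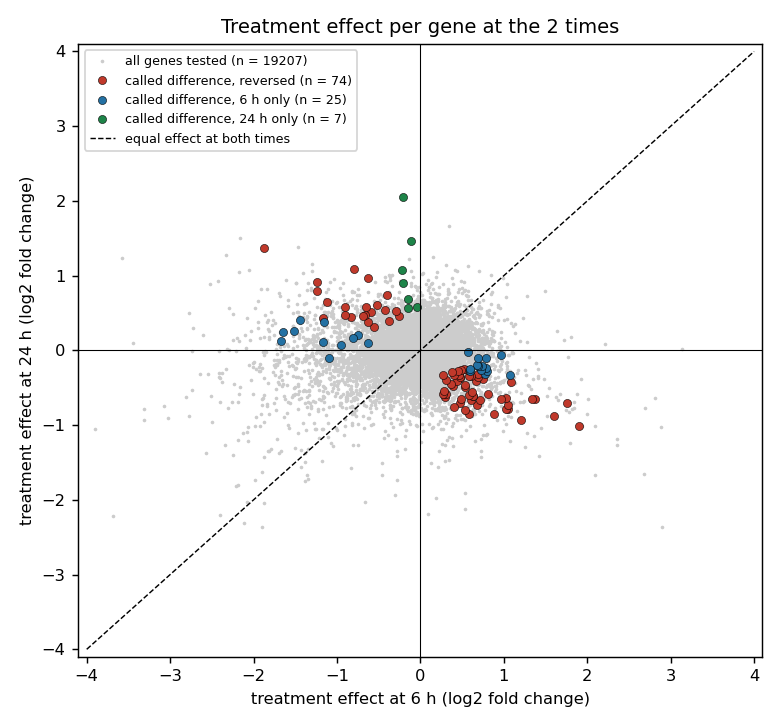
Treatment effect at 24 h (vertical axis) against the effect at 6 h (horizontal axis), both as log2 fold changes, for the 19207 genes tested (grey) and the 106 genes with a called difference, coloured by kind. The called genes lie away from the dashed line of equal effects, 52 of them as reversed genes at the lower right and 22 at the upper left.

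How many genes passed depended on single libraries. The count was 98 without 6 h mock 1 and 85 without 24 h mock 2, the library that stood apart. It was 56 and 44 without 6 h mock 2 and 3, and 56, 42 and 471 without 6 h treated 1, 2 and 3. It was 56 and 60 without 24 h mock 1 and 3, and 63, 38 and 53 without 24 h treated 1, 2 and 3. Reversed genes were the most frequent kind in 11 of these 12 refits, with 33 to 65 of them, and without 6 h treated 3 there were 176 reversed genes and 280 of 6 h only. With the replicate numbers of the titles as a block within each time the count was 376, of which 64.9% were higher at 24 h, against 40 of 106 without a block. Same-numbered samples deviated together at 6 h and not at 24 h, and with a block at 6 h only, added after seeing the data, the count was 409. A block by the source-name numbers gave 25, of which 18 were among the 106. Effects higher at 24 h outnumbered lower ones also in other fits, with 328 of 471 without 6 h treated 3, 189 of 342 by DESeq2, 123 of 239 with sample weights and 274 of 409 with the 6 h block. Genes of 6 h only outnumbered reversed genes by DESeq2 too, with 188 against 119. They also did so with the blocks by title numbers, with 186 against 175 within each time and 205 against 184 at 6 h only.

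The library 6 h treated 3 often lay closest to the mock roots. Among the 99 called genes with a 6 h response, it was the treated replicate nearest to the mock mean of 6 h in 67, or 67.7%, against 40.1% over all genes tested. The libraries 6 h treated 1 and 2 were nearest in 16 genes each. Each of the 106 genes kept the sign of its difference in every refit that left out 1 library and in every other setting in which it was tested. Choosing genes by a large difference in these same libraries favours a kept sign, so this is no separate support. Of the 106 genes, 30 were called in all 12 refits, 22 lower and 8 higher at 24 h, and 27 of those 30 had reversed.

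Genes raised at 6 h and lowered at 24 h formed the most numerous kind, with 52 genes. That order depended on the fit: without 6 h treated 3 there were 82 of them beside 221 genes lowered at 6 h only, DESeq2 gave 65 beside 118, and the blocks by title numbers gave 88 beside 146 within each time and 83 beside 160 at 6 h only. Their median log2 effect was 0.58 at 6 h and -0.58 at 24 h, and their median difference was -1.14, with a range from -2.90 to -0.59. In 46 of the 52 the treated and mock libraries did not overlap at either time, with opposite directions. Choosing genes by opposite effects at both times favours that pattern. Over all genes tested that pattern was seen in 1.46%, and groups apart in the same direction at both times in 1.04%. The groups were apart at 6 h in 19.6% of all genes and at 24 h in 11.8%. Without 24 h mock 2 the median effects were 0.58 and -0.51, and 33 of the 52 were still called.

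Among the called genes the largest fall in effect was in Os02g0541500. Over all genes tested the differences ran from -5.27 to 4.81, so uncalled genes had larger falls and rises. It had 0, 2.77 and 0.940 normalised counts in mock roots at 6 h, 7.87, 10.9 and 9.34 in treated roots at 6 h, 30.7, 21.4 and 24.9 in mock roots at 24 h and 8.34, 13.9 and 13.4 in treated roots at 24 h. All treated libraries were above all mock libraries at 6 h and below them at 24 h, while mock roots themselves were far higher at 24 h. The log2 effects were 1.90 and -1.01, and the difference was -2.90 ± 0.54 (SE), at a limma adjusted p of 0.0237. Its 6 h mock values amount to a few reads at most per library, and its rank depended on the pseudocount. The difference was -3.98 with a pseudocount of 0.5 and -1.68 with 8, where the gene described next, Os10g0466800, had -2.38. The call was lost on leaving out 6 h mock 3, 6 h treated 2, 24 h mock 1 or 3 or any 24 h treated library, where limma's adjusted p was 0.0505 to 0.0816.

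The second largest fall among the called genes was in Os10g0466800. Mock roots had 67.0, 61.0 and 50.8 normalised counts at 6 h and 260, 289 and 279 at 24 h, while treated roots had 252, 211 and 118 at 6 h and 213, 111 and 139 at 24 h. Again no treated library overlapped the mock libraries at either time. The log2 effects were 1.61 and -0.88, and the difference was -2.49 ± 0.39 (SE), at a limma adjusted p of 0.0226. The call was lost on leaving out 6 h mock 2 or 3, 6 h treated 2, any 24 h mock library or 24 h treated 3, where limma's adjusted p was 0.0532 to 0.0793.

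The gene next to it in the order of the identifiers was called as well, and this was the 1 pair of direct neighbours among the called genes. The neighbour had 105, 105 and 63.0 normalised counts in mock roots at 6 h and 215, 198 and 144 in treated roots. Its 24 h values were 208, 203 and 185 in mock roots and 172, 112 and 104 in treated roots. Its groups did not overlap at either time, and its difference was -1.67 ± 0.32 (SE), at a limma adjusted p of 0.0387. Whether reads were shared between the neighbours was not tested.

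A group of 6 genes passed the adjusted threshold at 6 h and at 24 h separately, and all of them were raised at 6 h and lowered at 24 h. Their log2 effects were 0.47 to 1.05 at 6 h and -0.86 to -0.70 at 24 h, with differences from -1.78 to -1.17. The one with the smallest adjusted p had 1044, 1046 and 909 normalised counts in mock roots and 1565, 1366 and 1421 in treated roots at 6 h. The 24 h values were 2180, 2207 and 2223 in mock roots and 1289, 1230 and 1273 in treated roots. Mock roots thus held about the same level within each time. The treated roots lay above them at 6 h and below them at 24 h with no overlap. Its effects were 0.54 and -0.80 on the log2 scale. The groups did not overlap at either time in any of the 6 genes, and choosing genes by called effects at both times favours this. The difference of all 6 was called in each of the 12 refits, but their separate calls at 6 h and 24 h were not. Both calls were kept by 0 of the 6 without 6 h mock 3, by 2 without 24 h mock 2 or 3, 6 h treated 1 or 2 or 24 h treated 2 or 3, by 4 without 6 h mock 1 or 2, 24 h mock 1 or 24 h treated 1, by all without 6 h treated 3, and by 0 with the source-name block. Without 24 h mock 2 their 24 h effects were -0.88 to -0.70.

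The gene with the largest difference of these 6 had 98.6, 93.3 and 94.0 normalised counts in mock roots and 228, 198 and 175 in treated roots at 6 h. Levels at 24 h were 305, 257 and 240 in mock roots and 174, 169 and 138 in treated roots. Its log2 effects were 1.05 and -0.73, and treated roots changed less between the times than mock roots did.

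Genes lowered at 6 h and raised at 24 h numbered 22. Their median log2 effect was -0.65 at 6 h and 0.54 at 24 h, with a median difference of 1.19 and a range from 0.72 to 3.25. In 20 of the 22 the groups did not overlap at either time, which the choice of these genes favours. Without 24 h mock 2 the median effects were -0.65 and 0.58, and 17 were still called.

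Among the called genes the largest rise in effect was in Os03g0640000. Mock roots had 31.7, 34.2 and 47.0 normalised counts at 6 h and 2.44, 1.26 and 2.87 at 24 h, and treated roots had 5.90, 6.97 and 14.9 at 6 h and 11.1, 8.08 and 7.24 at 24 h. Mock roots were high at 6 h and close to 0 at 24 h, whereas treated roots stayed between those levels at both times, with no overlap at either. The log2 effects were -1.88 and 1.37, and the difference was 3.25 ± 0.52 (SE), at a limma adjusted p of 0.0114. It was called in all 12 refits that left out 1 library but not with a block by the source-name numbers, at a limma adjusted p of 0.0687, and its 24 h values amount to a few reads per mock library.

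The gene of this kind with the smallest adjusted p had 548, 593 and 574 normalised counts in mock roots and 267, 302 and 403 in treated roots at 6 h. At 24 h it had 141, 123 and 123 in mock roots and 171, 192 and 171 in treated roots. The treated libraries were below the mock libraries at 6 h and above them at 24 h, and both treatments were lower at 24 h. The log2 effects were -0.84 and 0.45, and the limma adjusted p of the difference was 0.00551.

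A response at 6 h only was found in 25 called genes, 14 raised and 11 lowered. The raised genes had median log2 effects of 0.73 at 6 h and -0.22 at 24 h, and the lowered genes -1.16 and 0.16. All 25 were also called at 6 h by the adjusted p. At 24 h the groups were apart in 2 of the 14 raised and 1 of the 11 lowered genes, in the direction opposite to that of 6 h. Over all genes tested the groups were apart at 24 h in 11.8%. The 24 h estimate had the sign opposite to that of 6 h in 24 of the 25, and no 24 h interval at 95% reached a change 0.5 times as large as the 6 h estimate in the same direction. The widest such bound was 0.44 on the log2 scale. Choosing genes by a called difference and no 24 h response favours both outcomes, so they are no separate evidence of an absent response at 24 h. The number of this kind was 4 to 280 over the 12 refits.

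In the 6 h only gene with the smallest adjusted p among those raised, mock roots had 136, 174 and 159 normalised counts and treated roots 268, 263 and 252 at 6 h. At 24 h mock roots had 356, 383 and 307 and treated roots 289, 316 and 294. The groups were apart at 6 h and overlapped at 24 h, and its log2 effects were 0.74 and -0.21. Among those lowered, the gene with the smallest adjusted p had 177, 191 and 192 in mock roots and 53.1, 55.7 and 87.8 in treated roots at 6 h, then 25.8, 37.8 and 31.6 in mock roots and 34.7, 47.3 and 33.1 in treated roots at 24 h. Its groups were apart at 6 h and overlapped at 24 h, at log2 effects of -1.52 and 0.26.

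A response at 24 h only was found in 7 called genes, all raised at 24 h. Their median log2 effect was -0.15 at 6 h and 0.90 at 24 h, and their 95% intervals at 6 h ran from -0.74 to 0.37. The 6 h estimate was of opposite sign in all 7, and in 1 of them the groups were apart at 6 h in that direction. Choosing genes by a called difference favours opposite signs, and an absent response at 6 h was not shown. The largest difference was in Os07g0631200, with 43.8, 40.7 and 37.6 normalised counts in mock roots and 32.5, 32.8 and 40.2 in treated roots at 6 h. At 24 h it had 27.8, 23.9 and 11.5 in mock roots and 98.7, 83.1 and 84.8 in treated roots. The groups overlapped at 6 h, and at 24 h every treated library was well above every mock library. Its log2 effects were -0.20 and 2.05, the difference was 2.26 ± 0.36 (SE), at a limma adjusted p of 0.0104, and it was called in all 12 refits. Of the 7 genes, 3 were still called without 24 h mock 2, and the number of this kind was 1 to 14 over the 12 refits.

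**Figure D2:**
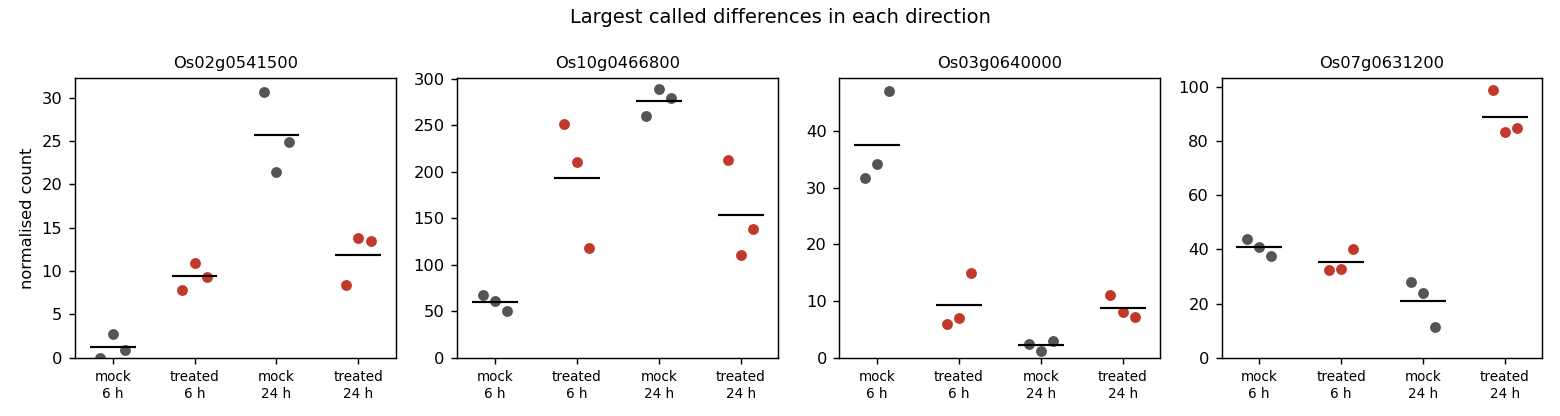
Normalised counts (vertical axis, linear from 0) of the 2 called genes with the largest falls and the 2 called genes with the largest rises in effect, in each of the 12 libraries. Grey points are mock and red points treated libraries, and black lines are group means of 3; the treated points lie on opposite sides of the mock points at the 2 times in the first 3 genes and overlap them at 6 h in Os07g0631200.

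The levels behind these differences were compared across the times with size factors computed over all 12 libraries, since the deposited values had been scaled separately at each time. In the 66 genes whose effect was lower at 24 h, mock roots rose by a median of 0.66 on the log2 scale from 6 h to 24 h, with quartiles of 0.39 and 1.07. Treated roots changed by -0.35, with quartiles of -0.70 and -0.05. In the 40 genes whose effect was higher at 24 h, mock roots changed by -1.04, with quartiles of -1.76 and -0.05, and treated roots by 0.09, with quartiles of -0.25 and 0.95. The change was larger in mock than in treated roots in 45 of the 66 and 26 of the 40 genes. Over all genes tested that was the case in 53.4%, and the medians were 0.01 and 0.00. These are medians over chosen genes, with no test.

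**Figure D3:**
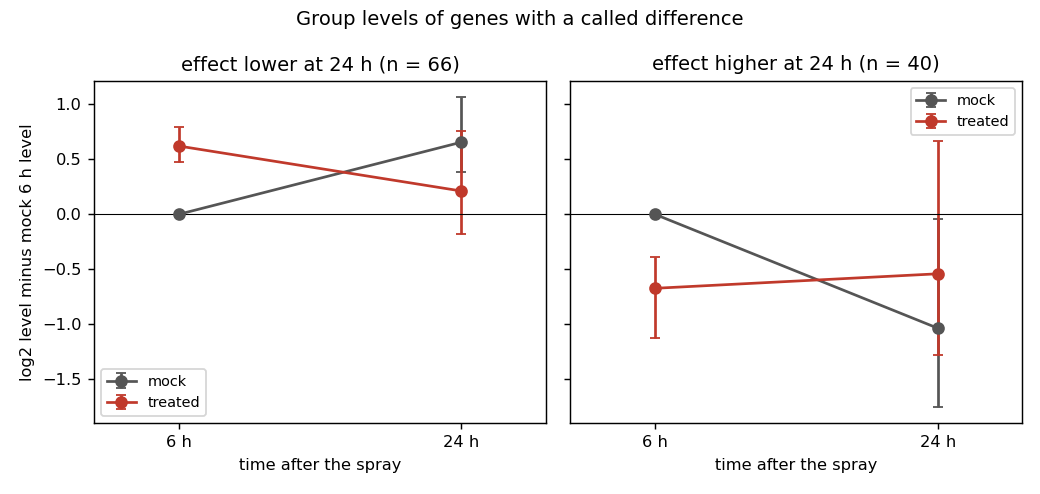
Median log2 level of each group relative to the 6 h mock level, for the 66 genes with an effect lower at 24 h (left) and the 40 with an effect higher at 24 h (right), with common size factors. Bars span the quartiles over genes; in the left panel the medians of treated roots at 6 h and mock roots at 24 h lie at 0.62 and 0.66, and in the right panel at -0.67 and -1.04.

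Most genes called at 6 h had no called difference, whereas most of the few called at 24 h had one. Of 319 genes called at 6 h by limma, 1.66% of those tested, the difference was called in 77 and not in 242. Of the 22 called at 24 h, 0.115% of those tested, it was called in 15 and not in 7. Among the 319 the 24 h effect had the opposite sign in 191 and the same sign in 128, and it passed an unadjusted p under 0.05 in 53 with the opposite sign and 18 with the same sign. Of the 146 genes raised at 6 h, 51 had a called difference, and of the 173 lowered, 26 had one. For the 242, a response at both times and a response at 6 h only were not told apart at this number of samples. The count at 24 h was 3 without 24 h mock 2 or 3, 5 without 24 h treated 1 or 2 and 7 without 24 h treated 3. The count at 6 h was 4 and 190 without 6 h mock 3 and 2, 11, 17 and 741 without 6 h treated 1, 2 and 3, and 174, 207 and 139 without 24 h mock 1, 24 h mock 3 and 24 h treated 2.

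Functions were examined through 37 lists of published loci. The table pairs no identifier with a name and the reference matched 1 of its 35833 identifiers, so a list's name is its intended content. Of 321 listed identifiers that were tested, 2 or 0.623% had a called difference, near the 0.552% of all genes, and 57 or 17.8% had an unadjusted p under 0.05, against 11.0% of all genes. The 2 called members are therefore described as single genes. Members were chosen with earlier results of these data known, which can favour shares above those of all genes. Such shares are therefore no separate support for a function. List medians below are descriptions without a test, to be read beside a median difference of -0.01 over all genes. The share of genes with a difference above 0 was 48.7%, and the share below 0 was 51.3%. Whether near-identical members of a family shared reads in the authors' counting was not tested.

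One called member was listed as a stress NAC factor, a family of plant transcription factors. It had 139, 176 and 145 normalised counts in mock roots and 246, 258 and 236 in treated roots at 6 h, and 300.2, 289 and 302 in mock roots and 258, 239 and 201 in treated roots at 24 h. The groups were apart at both times in opposite directions, and its log2 effects were 0.69 and -0.36. The difference was -1.04 ± 0.16 (SE), at a limma adjusted p of 0.0104. The list as a whole did not share this, with 4 of its 7 tested members higher and 3 lower at 24 h and a median difference of 0.06.

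The other called member was listed as a heat shock protein, one of the chaperones that keep proteins folded under stress. It had 681, 714 and 686 normalised counts in mock roots and 498, 505 and 548 in treated roots at 6 h, then 627, 491 and 615 in mock roots and 745, 784 and 1010 in treated roots at 24 h. Treated libraries were below the mock libraries at 6 h and above them at 24 h. Its difference was 0.97 ± 0.17 (SE), with a limma adjusted p of 0.0156, and leaving out 6 h treated 2 gave an adjusted p of 0.0555 and no call. In 9 of 11 tested heat shock genes the effect was higher at 24 h, with median effects of -0.09 and 0.36 and a median difference of 0.38, which was 0.37 to 0.51 in the 12 refits. Of the 11, 5 had an unadjusted p under 0.05, all of them higher at 24 h. Over all genes 5.95% passed in that direction. Besides the called gene, 3 of the 11 passed at 24 h only and 1 at 6 h only, against 4.62% and 13.3% of all genes.

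Genes listed for diterpenoid phytoalexins and their precursors had positive median effects at 6 h and negative ones at 24 h, and the negative 24 h medians rested mostly on 24 h mock 2. No member had a called difference, and 3 of the 26 had an unadjusted p under 0.05, a share near that of all genes. All 6 momilactone genes had positive effects at 6 h and negative effects at 24 h, with medians of 0.71 and -0.32 and a median difference of -1.01. Of 7 phytocassane genes 6 had a difference below 0, with medians of 1.41, -0.66 and -1.84 for the 6 h effect, the 24 h effect and the difference. All 6 unclustered genes of the pathway had a difference below 0, with a median of -1.15. All 7 genes for plastidial isoprenoid precursors had positive effects at 6 h and negative ones at 24 h, with a median difference of -0.82.

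Without 24 h mock 2 the median differences were 0.22 for momilactone, -1.005 for phytocassane, -0.41 for unclustered and -0.25 for isoprenoid precursor genes, and the median 24 h effects were 0.68, 0.10, -0.23 and 0.14. The scores of that library, the mean log2 level of a list's genes relative to the mean of the 6 libraries of its time, were 2.08, 1.66, 1.60 and 1.35, against -1.005 to -0.19 in the other 24 h mock libraries. Treated libraries did not move together: the momilactone score of 6 h treated 3, -0.67, was below all 6 h mock libraries, and that of 24 h treated 1, 0.83, was above the mock libraries other than 24 h mock 2. The isoprenoid precursor median was -1.25 and the momilactone median -1.62 without 24 h mock 1. Medians also moved by over 1.5 times without 24 h treated 3 for the 3 phytoalexin lists, and without 6 h treated 2 and 3 and 24 h treated 1 for momilactone.

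The phytocassane member with the smallest p had 30.4, 40.7 and 50.8 normalised counts in mock roots and 270.4, 212 and 95.3 in treated roots at 6 h. The values at 24 h were 89.2, 236 and 61.2 in mock roots and 94.5, 52.0 and 6.21 in treated roots. The groups were apart at 6 h and overlapped at 24 h, where 24 h mock 2 was the highest and 24 h treated 3 the lowest library. The difference was -3.76 ± 1.29 (SE), at a limma adjusted p of 0.330. The next member had a difference of -3.45 ± 1.52 (SE), and the second PR member by p one of -2.60 ± 0.97 (SE), with limma adjusted p of 0.455 and 0.374. In the other 3 lists the 2 members with the smallest p had differences of -0.53 and -1.23 for unclustered, -1.26 and -1.43 for momilactone and -0.76 and -1.79 for isoprenoid precursor genes, at limma adjusted p of 0.149 to 0.765.

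Genes listed as PR1, PR5 and PR10, small pathogenesis-related proteins, had positive effects at 6 h in 7 of 7 and negative effects at 24 h in 7 of 7. The median effects were 1.21 and -0.52 and the median difference was -1.78. These were 0.02 for the 24 h effect and -1.01 for the difference without 24 h mock 2. The member with the smallest p had 7128, 7018 and 6677 normalised counts in mock roots and 13049, 13320 and 9193 in treated roots at 6 h. At 24 h it had 11120, 13170 and 10780 in mock roots and 12579, 10882 and 9387 in treated roots, so that the groups were apart at 6 h and overlapped at 24 h. Its difference was -0.85 ± 0.20 (SE), with a limma adjusted p of 0.0745. Chitinases, which degrade chitin, were lower at 24 h in 7 of 8, with a median difference of -0.40, which was -0.05 without 24 h mock 2. It also moved by over 1.5 times without 6 h mock 1 and 2, 6 h treated 2, 24 h mock 3 and 24 h treated 2.

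**Figure D4:**
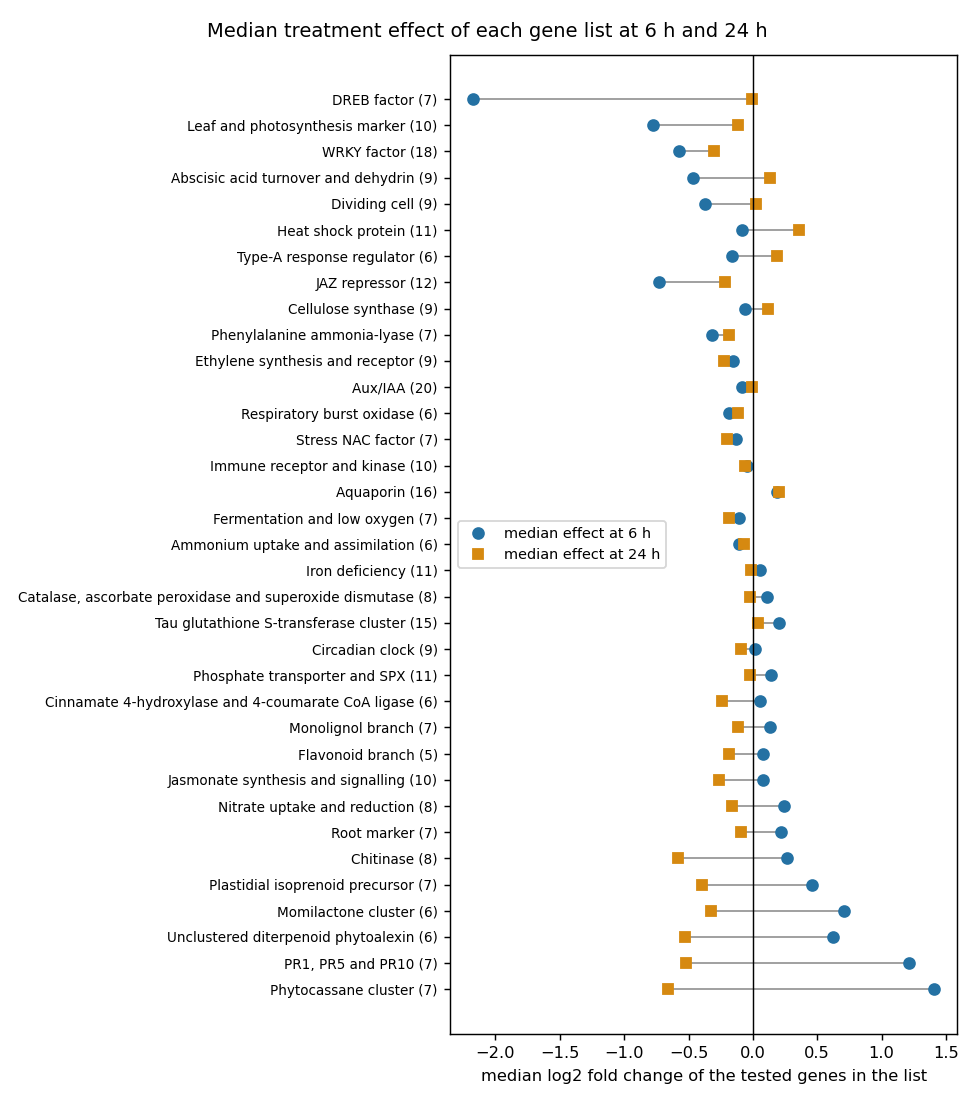
Median log2 fold change of treated against mock roots at 6 h (blue circles) and 24 h (orange squares) for the 35 lists with at least 5 tested genes, ordered by their difference, with the number of tested genes in brackets. DREB factors stand at one end, with medians of -2.17 and 0.00, and phytocassane genes at the other, with 1.41 and -0.66; no test belongs to these medians.

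Genes of the phenylpropanoid pathway, which the inhibitor targets, had no called difference. Only 0.552% of all genes had one, so the lack of a call in such short lists says little. The list medians lay between -0.33 and 0.18. Phenylalanine ammonia-lyase genes, which open the pathway, had median effects of -0.31 and -0.18, with 4 of 7 differences above 0 and none at an unadjusted p under 0.05. Their median difference of 0.18 was -0.17 to 0.33 over the 12 refits. Cinnamate 4-hydroxylase and 4-coumarate CoA ligase genes had medians of 0.06 and -0.24, with 5 of 6 differences below 0 and none at an unadjusted p under 0.05. Their median difference of -0.24 was -0.41 to -0.08 over the refits. Monolignol genes, which lead to lignin, had differences below 0 in 7 of 7, with a median of -0.29 and 2 at an unadjusted p under 0.05. That median was -0.17 without 6 h treated 2. Flavonoid genes had 4 of 5 below 0, 1 at an unadjusted p under 0.05, and a median of -0.33, which was 0.07 when all genes above 0 were kept and -0.43 to -0.18 over the refits.

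That flavonoid member, chosen after its values were seen, had the lowest difference of all genes tested. It had 12.2, 19.4 and 22.6 normalised counts in mock roots and 130, 332 and 68.2 in treated roots at 6 h, and 82.8, 1530 and 473 in mock roots and 835, 19.6 and 22.8 in treated roots at 24 h. The groups were apart at 6 h and overlapped widely at 24 h, where 24 h mock 2 was the highest library and 24 h treated 1 the highest treated one. The difference was -5.27 ± 2.20 (SE), at a limma adjusted p of 0.432, and it was -4.29 without 24 h mock 2.

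Genes listed as DREB factors, known for their part in cold, drought and salt stress, had the largest median difference of the lists, 2.73, with 6 of 7 above 0. Their effects were negative at 6 h in 7 of 7, with a median of -2.17, and the median at 24 h was 0.00. Of the 7, 4 had an unadjusted p of the difference under 0.05, 2 of which reversed, and none was called. Over the refits the median was 2.00 to 3.69, and it was 2.87 without 24 h mock 2.

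The DREB member with the smallest p had 427, 359 and 413 normalised counts in mock roots and 37.4, 75.7 and 228 in treated roots at 6 h. At 24 h it had 2.92, 1.26 and 1.91 in mock roots and 5.56, 6.93 and 6.21 in treated roots, which is a few reads in each library. Treated roots were below mock roots at 6 h and above them at 24 h, and both were far lower at 24 h. Its difference was 3.22 ± 0.67 (SE), with a limma adjusted p of 0.0714. A second member had 2731, 3406 and 4312 in mock roots and 348, 617 and 2056 in treated roots at 6 h, then 34.6, 31.5 and 39.2 in mock roots and 79.2, 135 and 102 in treated roots at 24 h, with a difference of 3.67 ± 0.80 (SE) and a limma adjusted p of 0.115. In both, 6 h treated 3 was the treated library nearest to mock roots.

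WRKY factors, transcription factors of defence and stress, had differences above 0 in 13 of 18, with median effects of -0.57 at 6 h and -0.30 at 24 h and a median difference of 0.45. By unadjusted p 8 of them passed at 6 h only, 1 at 24 h only and 0 at both times; over all genes 13.3% passed at 6 h only and 4.62% at 24 h only. Their median 24 h effect was 0.07 without 24 h mock 2. The member with the smallest p had 599, 663 and 745 normalised counts in mock roots and 147, 222 and 438 in treated roots at 6 h, and 77.0, 84.4 and 84.2 in mock roots and 98.7, 113 and 108 in treated roots at 24 h. Its groups were apart at both times in opposite directions, and its difference was 1.82 ± 0.43 (SE), at a limma adjusted p of 0.124. The second had a difference of 1.75 ± 0.49 (SE), at a limma adjusted p of 0.174, with treated libraries below mock libraries at 6 h and overlapping them at 24 h. The median was 0.22 without 6 h treated 1, moved by over 1.5 times without 6 h mock 3 and 24 h mock 3, and was 0.03 with a block by the source-name numbers.

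JAZ repressors, which hold back the jasmonate response, had effects of -0.73 at 6 h and -0.22 at 24 h in the median, with 8 of 12 differences above 0. Of the 12, 4 passed an unadjusted p at 6 h only and none at 24 h only, against 13.3% and 4.62% of all genes. Their median difference of 0.29 was 0.95 without 24 h mock 2, where the median 24 h effect was 0.25, and -0.07 without 24 h mock 3, so its direction rested on single libraries. Genes for jasmonate synthesis and signalling had 8 of 10 differences below 0 and a median of -0.34, which was 0.07 without 24 h mock 2.

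**Figure D5:**
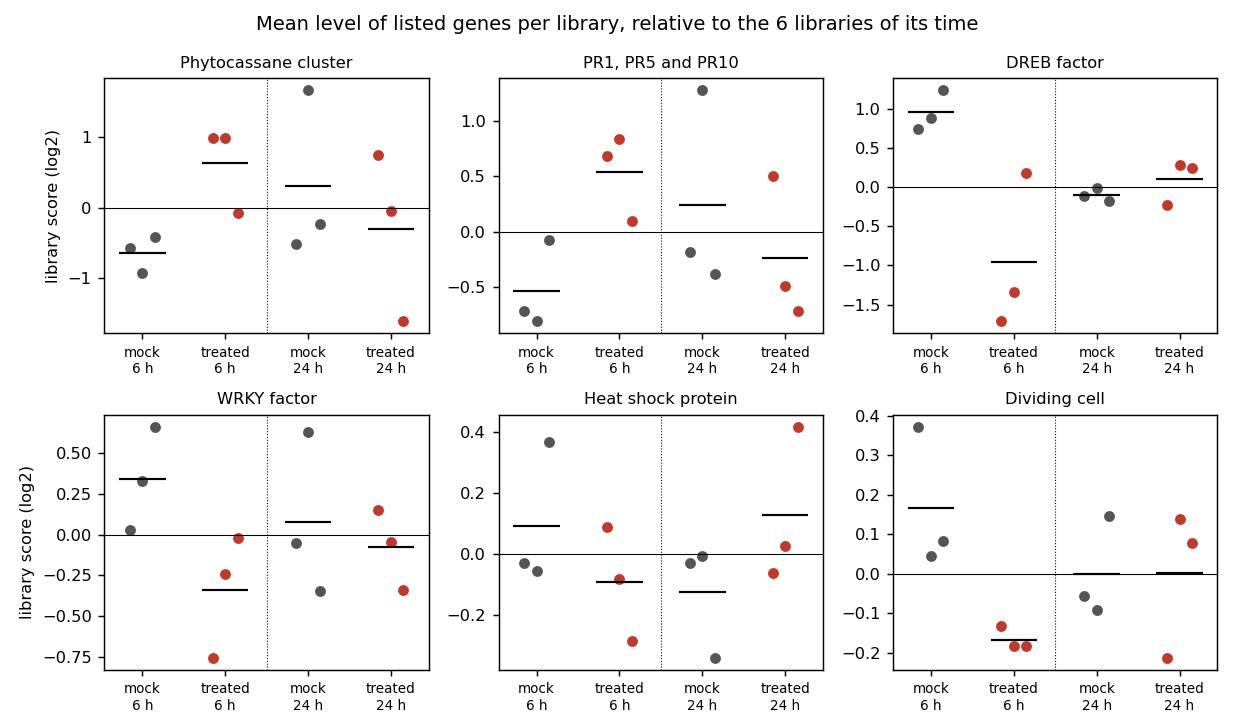
Library scores of 6 lists, the mean log2 level of the listed genes relative to the mean of the 6 libraries of the same time (vertical axis), for mock (grey) and treated (red) libraries at 6 h (left of the dotted line) and 24 h (right). Black lines are group means of 3; 24 h mock 2 is the highest library of its time for phytocassane and PR genes, at 1.66 and 1.29, and 6 h treated 3 lies apart from the other treated libraries for DREB factors, at 0.19 against -1.71 and -1.34.

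Hormone lists held single members with large differences. Genes of abscisic acid turnover and dehydrins had 7 of 9 differences above 0 and a median of 0.43, which was 0.08 to 0.88 over the refits, and 1 member reversed the other way, with a difference of -1.66 ± 0.39 (SE) and a limma adjusted p of 0.0738. Aux/IAA genes, repressors of the auxin response, had 11 of 20 above 0, and 1 of them reversed, at -1.30 ± 0.30 (SE) and a limma adjusted p of 0.0738. Type-A response regulators, negative regulators of the cytokinin response, had 6 of 6 above 0 and a median of 0.35, or 0.22 without 24 h mock 2. Ethylene genes had 6 of 9 above 0 and a median of 0.16, which was -0.04 to 0.33 over the refits. All 4 tested strigolactone genes were below 0, and 1 of them reversed, at -0.76 ± 0.17 (SE) and a limma adjusted p of 0.0637. The difference had an unadjusted p under 0.05 in 35% of the Aux/IAA genes, 3 higher and 4 lower at 24 h, against 11.0% of all genes. It passed in 2 abscisic acid genes higher and 1 lower at 24 h, and in 2 strigolactone genes, both lower. One type-A regulator passed, higher at 24 h, and no ethylene gene did.

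Growth-related lists had mostly positive differences. Genes of dividing cells had differences above 0 in 9 of 9, with median effects of -0.37 and 0.02 and a median difference of 0.40, or 0.26 without 24 h mock 2. Their scores were -0.18 to -0.13 in treated and 0.05 to 0.37 in mock roots at 6 h, with no overlap, and -0.21 to 0.14 against -0.09 to 0.15 at 24 h, where they overlapped. Scores did not overlap at 6 h in other lists either, among them phytocassane, PR, DREB, WRKY, JAZ, flavonoid, ethylene, strigolactone, phosphate and tau glutathione S-transferase genes. Of all single genes tested, 19.6% had groups apart at 6 h. By unadjusted p 4 of the 9 dividing cell genes passed at 6 h only, against 13.3% of all genes. Cellulose synthase genes, which build the cell wall, had 8 of 9 above 0, with medians of -0.06 and 0.12 and a median difference of 0.20. It was 0.12 without 24 h mock 2 and also moved by over 1.5 times without 24 h mock 1 and 3.

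Lists for transport and nutrition mostly had median differences near that of all genes. Aquaporins, the water channels of membranes, had positive effects in 13 of 16 at 6 h and in 13 at 24 h, of which 10 were positive at both times, with medians of 0.19 and 0.20 and a median difference of 0.01. Iron deficiency, ammonium and phosphate genes had median differences of -0.07, -0.03 and -0.14. Nitrate uptake and reduction genes had 6 of 8 below 0 and a median of -0.35, and 1 member lay the other way, at 0.79 ± 0.17 (SE), at a limma adjusted p of 0.0599. Their median was -0.17 without 24 h mock 3.

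Among the remaining lists, respiratory burst oxidases had negative effects in 6 of 6 at both times and a median difference of 0.07. Catalase, ascorbate peroxidase and superoxide dismutase genes, tau glutathione S-transferases, immune receptors and kinases, clock genes, and genes of fermentation and low oxygen had median differences from -0.11 to 0.04. Beta-1,3-glucanases had 3 of 4 tested members below 0 and a median of -1.02. Without 24 h mock 2, whose score was 1.53 against -0.51 and -0.25 in the other 24 h mock libraries, the median difference was -0.64 and the median 24 h effect turned from -0.73 to 0.13. Genes listed as leaf markers had 9 of 10 differences above 0 and a median of 0.62, which was 0.07 without 6 h mock 2 and 1.17 without 6 h mock 1 and moved by over 1.5 times without 24 h mock 1 and 3 and 24 h treated 2 and 3. Their summed counts were 767 to 1998 in mock and 505 to 768 in treated roots at 6 h, and 563 to 1724 in mock and 565 to 1678 in treated roots at 24 h, and their part in the differences above was not tested. The 2 leaf markers with the smallest p had differences of 0.93 ± 0.52 (SE) and 1.16 ± 0.85 (SE), with limma adjusted p of 0.573 and 0.701. Root markers had 5 of 7 below 0 and a median of -0.38, which was -0.50 to -0.25 over the refits. Of the 7, 3 had an unadjusted p under 0.05, all of them lower at 24 h, and none was called. Over all genes 5.02% passed the unadjusted p in that direction. Nitrate and phosphate transporter genes were among those listed as root markers. The lowest difference was -1.09 in this list and in the nitrate list, so these lists are not separate results.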

How the data were processed

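For 12 root libraries the authors deposited a single gene table whose signal is, from its values, a read count divided by the library's size factor. Per the submitters' processing notes, FastQC 0.11.8, Trimmomatic 0.38, STAR 2.6.1d and DESeq2 were used. Neither a counting tool nor a genome build is given in the sources used here. Per the labels' protocols, libraries were made from 2 µg of RNA. In every library at least 99.9779% of values were whole reads within 0.01, so reads could be recovered. Size factors were set within each time, so 24 h mock roots sat a median of 0.30 above 6 h mock roots on the log2 scale, an offset that largely cancels in each effect. Titles gave each sample's group and replicate number; the source names of 3 treated samples carry other numbers.

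Values were taken as log2(normalised count + 2), which understates fold changes of low genes, and genes with a mean of at least 10 were kept: the lowest mean tested was 10.0, with a difference of -0.44, and the highest not tested 9.99, with 1.54. The model, of 4 group means over 12 samples, was fitted in limma 3.58.1 (R 4.3.3) with trend and robust settings of its variance moderation, and Benjamini-Hochberg adjustment ran over 19207 genes; the largest adjusted p called was 0.0494 and the smallest not called 0.0537. edgeR 4.0.16 and DESeq2 1.42.0 on recovered reads were alternatives, with other pseudocounts, filters, scalings, sample weights, replicate blocks and leaving out each library. Scripts were tested on simulated data. Depth limits the precision for genes with few reads.

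Same-numbered samples correlated at 0.126 to 0.305 in their deviations from group means at 6 h, -0.187 to 0.0505 at 24 h and -0.245 to 0.153 across times, so the numbers were not taken to pair the samples for the difference. Replicates differed by more than sampling noise, with chi-square values of 5.17 to 27.8 per degree of freedom. Members and lists were chosen with earlier results of these data known. The rule for named genes was the 2 largest rises and 2 largest falls among called genes, called list members, genes called at both times, and the 2 members with the smallest p in the 8 lists with the largest medians; list members and genes called at both times are given without identifiers. Lists came from recalled loci, 377 identifiers in all, with no file to check them against. Promoter motifs were not analysed here.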

Additional observations from a re-analysis of the deposited data

Results flagged for a closer look

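The treatment effect differed between 6 h and 24 h, by limma's test of the difference itself, in 106 genes. Among them the 2 printed genes with an effect lower at 24 h were Os02g0541500, with a log2 difference of -2.90, and Os10g0466800, with -2.49. The 2 printed genes with an effect higher at 24 h were Os03g0640000, with 3.25, and Os07g0631200, with 2.26. The listed stress NAC factor had a difference of -1.04 and the listed heat shock gene 0.97, and both had effects of opposite sign at the 2 times. With 3 samples in a group, single samples were not tested for lying far from the others.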

How the results depend on the processing

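The 106 called differences were 89 with edgeR, 105 and 111 with pseudocounts of 0.5 and 8, 104 and 105 with scaling over all libraries, 83 without a filter and 120 with a shared block. Counts that moved by over 1.5 times are given as called differences, genes called at 6 h, at 24 h, reversed, 6 h only and 24 h only, in that order, leaving out those that moved less. Sample quality weights gave 239, 686, 40, 128, 98 and 13, and DESeq2 gave 342, 679, 53, 119, 188 and 35. A replicate block within each time gave 376, 802, 175, 186 and 14 by the title numbers (no move at 24 h) and 25, 65, 0, 22, 2 and 1 by the source-name numbers, where limma had 1330 genes at 24 h with an unadjusted p under 0.05. A replicate block at 6 h only, added after seeing the data, gave 409, 767, 184, 205 and 18 (no move at 24 h). Without robust moderation there were 13 genes at 24 h, 11 of 6 h only and 3 of 24 h only, and without a filter 3 of 24 h only. Leaving out 1 library gave 38 to 471 differences, 4 to 741 genes at 6 h, 3 to 30 at 24 h, 33 to 176 reversed, 4 to 280 of 6 h only and 1 to 14 of 24 h only. With the source-name block the calls of Os02g0541500, Os10g0466800 and Os03g0640000 were lost, at adjusted p of 0.127, 0.0687 and 0.0687, as were those of the NAC and heat shock members, at 0.0805 and 0.0962; DESeq2 gave no adjusted p for Os02g0541500 and Os03g0640000. Of 910 list medians under the alternatives, 876 moved by less than the spread between libraries and 34 by more. That spread was taken within groups and included 24 h mock 2. Signs were not compared, so a median that changed sign could count among the 876, and this count does not show that medians were stable. The cause of these changes was not tested.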
